A study of Mus musculus with 3 samples.

Results

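The mitochondrial genome transcripts of activated regulatory T cells are the products of the small circular genome inside the mitochondrion. Members were taken as every gene whose symbol starts with mt-, which gave 37 genes of the 55536 mouse genes in the deposited table: 13 protein-coding genes, 2 ribosomal RNA (rRNA) genes and 22 transfer RNA (tRNA) genes. The cells, labelled as activated regulatory T cells, came from a male adult mouse of 4 months and of the strain Foxp3CreERT2 x Rosa26YFP, which carries an inducible Cre recombinase at Foxp3 and a fluorescent reporter at Rosa26. PolyA-selected RNA was sheared to 100 to 300 bp and sequenced in 3 libraries, which the labels call technical replicates 1, 2 and 3 of 1 biological replicate. With 1 group and no control, values are given as levels with their spread, and no conditions are compared. Levels are those after polyA selection, whose effect on each RNA was not tested. The source text gives an origin from bone marrow hematopoietic cells, while the sort or gate and any Cre induction were not given in the sources used here. All p-values measure only the spread between these libraries, which may be technical.

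Mitochondrial DNA is transcribed from both strands into long precursors, from which the tRNAs are cut out and the mRNAs and rRNAs between them released. The heavy strand is the template for most of the genes, while the light strand is the template for mt-Nd6 and a minority of the tRNAs. The encoded proteins are core subunits of respiratory complexes I, III and IV and of ATP synthase (complex V), each of which is completed by subunits made from nuclear genes, and oxidative metabolism is a known requirement of regulatory T cells.

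Replicates 1, 2 and 3 held 10981924, 9700630 and 6667391 fragments assigned to mouse genes in the main deposited table, from which values are taken unless another is named. All 5 regulatory T cell markers listed (Foxp3, Il2ra, Ikzf2, Ctla4 and Tnfrsf18) were detected in every library, with summed levels of 1481 to 1579 TPM (a level scaled by transcript length and by the total of the library). The 5 T cell markers summed to 4122 to 6576 TPM. Markers of other cells summed to less, the highest being the erythroid list at 795 TPM in replicate 1. That list summed to 5.30 and 23.4 TPM in replicates 2 and 3, with 2 of its 5 genes detected in all libraries. The 5 B cell markers summed to 67.4 to 101 TPM (4 detected), the 3 plasma cell markers to 9.62 to 101 TPM (2 detected) and the 6 myeloid markers to 8.68 to 26.1 TPM (3 detected). The CD8 list reached at most 16.2 TPM, the NK list 2.97 TPM and the platelet list 1.95 TPM. No marker was at 0 in all 3 libraries.

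The compact layout of the genome bears on how fragments can be assigned, and 2 features are shown here because values below are given for the genes concerned. All sequences are from the GENCODE M21 transcripts (genome build mm10), written 5′ to 3′ on the gene's own strand. The first feature is overlap between neighbours, with the shared bases in capitals. mt-Atp8 ends inside mt-Atp6 and shares 43 bases with it, in another reading frame. mt-Nd4l shares 7 bases with mt-Nd4. mt-Nd5 and mt-Nd6 share 14 bases on opposite strands.
mt-Atp8, end (chrM:7910-7969): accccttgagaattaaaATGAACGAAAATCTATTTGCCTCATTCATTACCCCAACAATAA
mt-Atp6, start (chrM:7927-7986): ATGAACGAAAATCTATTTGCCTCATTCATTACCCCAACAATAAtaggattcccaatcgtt
mt-Nd4l, end (chrM:10144-10173): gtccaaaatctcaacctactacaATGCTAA

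The other feature is the light-strand tRNA gene mt-Ts1, which decodes serine and lies on the opposite strand directly after mt-Co1. The 3 bases by which both overlap are in capitals. The heavy-strand tRNA gene mt-Td, which decodes aspartate, follows next and is shown as the neighbour it is set against below.
mt-Co1, end (chrM:6843-6872): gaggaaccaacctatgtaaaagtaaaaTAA
mt-Ts1, whole (chrM:6870-6938, minus strand): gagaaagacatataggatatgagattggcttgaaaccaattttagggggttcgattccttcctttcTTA
mt-Td, whole (chrM:6942-7011): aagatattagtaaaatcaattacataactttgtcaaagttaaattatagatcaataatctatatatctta

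The mitochondrial genes took 2.87%, 2.21% and 2.67% of assigned fragments in replicates 1, 2 and 3, a mean of 2.59% ± 0.339 (SD, n = 3). Replicate 2 was the lowest. In RNA from a pool of cells, fewer cells of a type and less RNA per cell cannot be told apart. Within the mitochondrial fragments, protein-coding genes took 71.5%, 70.3% and 68.0% and the 2 rRNA genes 28.5%, 29.7% and 32.0%. Replicate 3 thus had the highest rRNA share and the lowest protein-coding share. Of the 37 members, 15 were detected (TPM of 1 or more in each of the 3 libraries), namely the 13 protein-coding and both rRNA genes.

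In the polyA-selected RNA, the large rRNA had the higher level of the 2 ribosomal RNAs in every library. mt-Rnr2 (chrM:1094-2675), the 16S rRNA of the large mitochondrial ribosomal subunit, stood at 6633, 5657 and 6911 TPM. mt-Rnr1 (chrM:70-1024), the 12S rRNA of the small subunit, stood at 955, 879.9 and 899 TPM. The libraries of the 2 genes did not overlap, and the ratio of mt-Rnr2 to mt-Rnr1 was 6.94, 6.43 and 7.69, a mean of 7.02 ± 0.632 (SD, n = 3). Both genes lie in the same transcription unit, with the tRNA gene mt-Tv between them. How far polyA selection kept each of the 2 RNAs was not tested, so the ratio may not be that in the cells. mt-Rnr2 alone took 27.8% ± 1.76 of all mitochondrial fragments and ranked 9 among all genes by mean TPM.

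The 13 protein-coding members ranged from rank 10 to rank 404 among all genes, and their median was 1557, 1300.1 and 1947 TPM. The median of the 9988 protein-coding genes detected in all 3 libraries was 20.5 TPM ± 1.09 (SD, n = 3). Within the 13 the levels of the main table fell into steps whose libraries did not overlap. Cytochrome c oxidase and ATP synthase genes were at the top, and the 7 complex I genes were below all the others. The second table, described below, gave other steps.

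The highest step held genes of complexes IV and V. mt-Co3 (chrM:8607-9390), a core subunit of cytochrome c oxidase, stood at 8155, 5729 and 5293 TPM. mt-Atp6 (chrM:7927-8607), subunit a of the proton channel of ATP synthase, stood at 6189, 4983 and 6999 TPM. mt-Co1 (chrM:5328-6872), the catalytic subunit of cytochrome c oxidase, stood at 5601, 5104 and 5171 TPM. The ranges of these 3 genes overlapped between libraries. Within each library mt-Co3 was above mt-Co1, in the main table and in the second table described below. The place of mt-Atp6 against both differed between libraries of the main table. mt-Co1 was the steadiest of them, with a highest library 1.10 times the lowest, while mt-Co3 spread 1.54 times.

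In the main table a second step held 3 genes with nearly equal means. mt-Co2 (chrM:7013-7696), the subunit of cytochrome c oxidase that takes electrons from cytochrome c, stood at 3528, 2445 and 2888 TPM. mt-Cytb (chrM:14145-15288), cytochrome b and the complex III member of the mitochondrial genome, stood at 3503, 2679.5 and 2530.2 TPM. mt-Atp8 (chrM:7766-7969), a short accessory subunit of ATP synthase, stood at 2931, 2381 and 3319 TPM. The 3 ranges overlapped, and in the main table every library of this step lay below every library of the highest step. In a second deposited table, computed from the read files and an index of transcripts, mt-Co1 fell out of the highest step, at 2793, 2703 and 2945 TPM against 3361, 2734 and 3363 TPM for mt-Co2. The second step was lost there too. mt-Cytb stood at 1848, 1487 and 1485 TPM and mt-Atp8 at 5824, 4720 and 7502 TPM, so the 3 ranges no longer overlapped.

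The 7 complex I genes, which encode membrane subunits of the proton-pumping arm of NADH dehydrogenase, were all lower. mt-Nd1 (chrM:2751-3707) stood at 1557, 1300.1 and 1947 TPM, and was the median gene of the 13 in each library. mt-Nd4 (chrM:10167-11544) stood at 986, 748 and 724 TPM. mt-Nd5 (chrM:11742-13565) stood at 693, 608 and 676 TPM. Each of these 3 was separated from the next by a gap between libraries, although that between mt-Nd4 in replicate 3 and mt-Nd5 in replicate 1 was small.

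The other 4 complex I genes were not separated by a gap between libraries. mt-Nd2 (chrM:3914-4951) stood at 495, 418.0 and 422 TPM, and mt-Nd3 (chrM:9459-9806) at 425, 339 and 440.4 TPM. mt-Nd6 (chrM:13552-14070, minus strand) stood at 403, 381 and 422 TPM. mt-Nd4l (chrM:9877-10173) stood at 418, 321 and 325 TPM. Their ranges overlapped throughout, although mt-Nd2 and mt-Nd3 were above mt-Nd4l within each library of the main table. In each library of the second table mt-Nd3 stayed above mt-Nd4l, but mt-Nd2 was below it. In the main table all 4 were below the lowest library of mt-Nd5. In the second table this was lost: mt-Nd3 at 473 ± 52.0 TPM, mt-Nd4l at 403 ± 47.8 TPM and mt-Nd6 at 376 ± 30 TPM had higher means than mt-Nd5 at 345 ± 30.5 TPM, and the range of mt-Nd2 overlapped that of mt-Nd5.

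**Figure D1:**
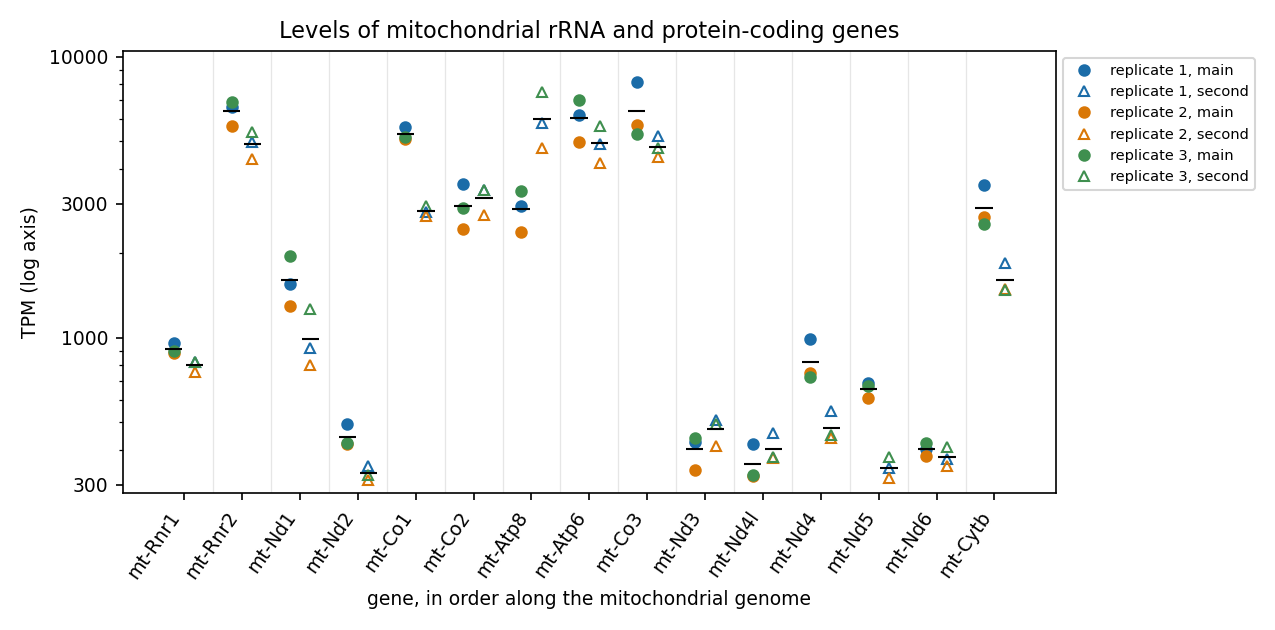
TPM (log axis) of the 15 detected mitochondrial genes in genome order, with filled circles for the main and open triangles for the second quantification, 1 point per library and a black bar at the mean of 3 libraries. mt-Co3, mt-Atp6, mt-Co1 and mt-Rnr2 lie highest in the main values, and mt-Atp8 is higher and mt-Co1, mt-Cytb, mt-Nd4 and mt-Nd5 are lower in the second.

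The order within overlapping pairs also depended on the quantification. The second table gave mt-Atp8 5824, 4720 and 7502 TPM, above mt-Atp6 at 4904, 4180 and 5668 TPM. The ratio of mt-Atp8 to mt-Atp6 was 0.475 ± 0.00230 in the main and 1.21 ± 0.0997 in the second table (SD, n = 3), so the order of this overlapping pair turned. The estimated counts of mt-Atp8 in the second table were 6.37 ± 0.466 times those of the main table, against 1.18 ± 0.0144 times for mt-Nd5. mt-Atp8 is 204 bases long, and its effective length in the main table, the length over which a fragment can start, was 42.3 to 50.5 bases. The level of mt-Atp8 was thus not fixed by these data to better than the difference between both tables.

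The other overlapping pairs named with the sequences above moved in the same way. The ratio of mt-Nd4l to mt-Nd4 was 0.434 ± 0.0135 in the main and 0.841 ± 0.00674 in the second table. The ratio of mt-Nd6 to mt-Nd5 was 0.611 ± 0.0257 in the main and 1.09 ± 0.0151 in the second, so that mt-Nd6 went from below to above mt-Nd5. In each of these pairs the shorter gene gained relative to its neighbour in the second table. Estimated counts in the second table were 2.73 ± 0.132 times those of the main table for mt-Nd4l. They were 2.75 ± 0.289 times for mt-Nd3, a short gene that overlaps no other member. Whether overlap or length had a part in these shifts was not tested. Some ratios of longer genes were steadier: mt-Co1 over mt-Nd5 was 8.04 ± 0.371 in the main and 8.17 ± 0.370 in the second table. mt-Cytb over mt-Nd5 was 4.40 ± 0.655 and 4.68 ± 0.725. Other long genes moved against each other. mt-Rnr2 and mt-Co1 had means of 6400 and 5292 TPM in the main and 4899 and 2814 TPM in the second table. mt-Nd2 and mt-Nd5 had 445 and 659 TPM in the main and 329 and 345 TPM in the second table.

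The strand balance was read from mt-Nd6, the 1 protein-coding gene transcribed from the light strand. Its level was compared with the median of the 12 heavy-strand protein-coding genes, which was 2244, 1841 and 2239 TPM. This median is the midpoint of a gap between mt-Nd1 and the next higher gene. That gene was mt-Atp8 in replicates 1 and 2, whose level differed between both tables, and mt-Cytb in replicate 3. mt-Nd6 lay below that median by a log2 difference of -2.48, -2.27 and -2.41 in replicates 1, 2 and 3, a mean of -2.39 ± 0.105 (SD, n = 3). The heavy-strand median was thus 5.24 ± 0.377 times the level of mt-Nd6. In the second table the log2 difference was -1.79 ± 0.103. mt-Nd6 was nevertheless not below every heavy-strand gene: its range overlapped those of mt-Nd2, mt-Nd3 and mt-Nd4l. Within libraries of the main table it was below mt-Nd2 in replicates 1 and 2 and level with it in replicate 3. Strand also showed in base composition, since G minus C, as a percent of bases in the coding sequence, was 22.2% in mt-Nd6 and -20.1% to -7.64% in the 12 heavy-strand genes. Whether the libraries keep strand was not given in the sources used here, so mt-Nd6 fragments and fragments of the opposite strand of the heavy-strand transcript cannot be told apart. PolyA selection may also have kept mt-Nd6 and the heavy-strand mRNAs unequally, which was not tested.

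The 22 tRNA genes are 59 to 75 bases long, shorter than the lower end of the fragment range. Their effective length in the main table was 0, and 20 of the 22 were listed at 0 in all 3 libraries. The exceptions were mt-Ts1, with 1, 0 and 1 fragments, and mt-Tl1, which decodes leucine, with 0, 0 and 1. Those listed at 0 were mt-Tf, mt-Tv, mt-Ti, mt-Tq, mt-Tm, mt-Tw, mt-Ta, mt-Tn, mt-Tc, mt-Ty, mt-Td, mt-Tk, mt-Tg, mt-Tr, mt-Th, mt-Ts2, mt-Tl2, mt-Te, mt-Tt and mt-Tp. A value of 0 for a gene with no effective length says nothing of its level.

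The second table did give counts for the tRNA genes, and they split by the strand on which the gene is annotated. Light-strand tRNA genes lie antisense to the heavy-strand precursor. Without a known strand setting, as for mt-Nd6, their counts cannot be told apart from fragments of that precursor, and all tRNA counts below are of annotated positions, not of tRNA. The 8 light-strand tRNA genes held 2726, 2100 and 1691 estimated counts, and the 14 heavy-strand ones held 91, 46 and 57. Positions of light-strand genes thus took 96.8%, 97.9% and 96.7% of tRNA counts. The lowest light-strand gene, mt-Ta, had 24, 23 and 28 counts. The highest heavy-strand count was 22 and 17 in replicates 1 and 2 (mt-Tm) and 20 in replicate 3 (mt-Tl1). The strands thus did not overlap within any library. The margin in replicate 1 was 2 counts, within counting error.

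mt-Ts1 had the highest count of the 22, with 2249, 1669 and 1231 estimated counts, or 76.0% ± 4.95 of all tRNA counts (SD, n = 3). These were 2.72%, 2.72% and 2.63% of the counts of mt-Co1, the gene it follows on the opposite strand. These counts may hold fragments of the heavy-strand precursor that runs through mt-Co1 and past it, which was not tested. mt-Td, the heavy-strand neighbour printed above, had 4, 1 and 3 counts. The share relative to mt-Co1 was nearly the same in all 3 libraries, while the count of mt-Ts1 itself varied beyond sampling noise.

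Without mt-Ts1 the other 7 light-strand genes still summed to 477, 431 and 460 counts. mt-Te, which decodes glutamate and lies next to mt-Nd6 on the same strand, had 120, 95 and 75. mt-Tn, which decodes asparagine, had 94, 108 and 115, and mt-Tc and mt-Ty of the same gene cluster had 71, 52 and 80 and 41, 31 and 54. mt-Tq had 79, 69 and 68 and mt-Tp 48, 53 and 40. Among heavy-strand genes, mt-Tm and mt-Tl1 were the highest at 22, 17 and 13 and at 12, 5 and 20 counts, and the median of the 14 was 4, 1.5 and 1.5. Of the 14, 6 were at 0 in at least 1 library, where 0 allows up to 3 counts. The mean length was 68.6 bases for light-strand and 68.0 bases for heavy-strand tRNA genes, and GC content averaged 36.5% and 32.8%.

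**Figure D2:**
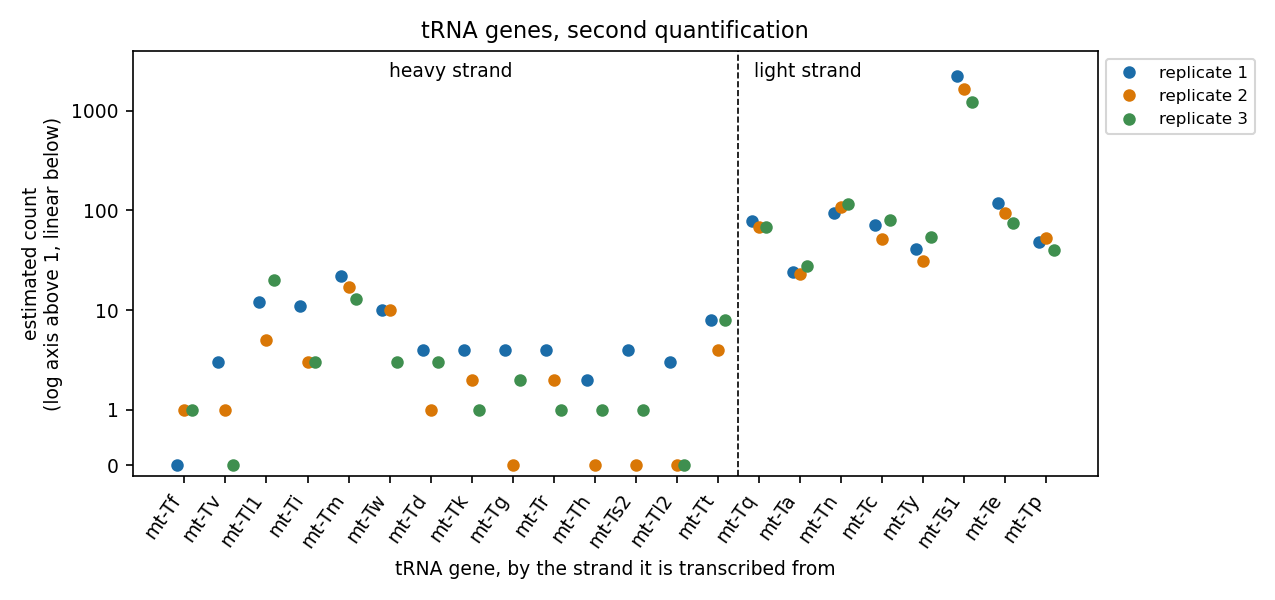
Estimated counts of the 22 mitochondrial tRNA genes in the second quantification, 1 point per library, with the 14 heavy-strand genes left and the 8 light-strand genes right of the dashed line (vertical axis logarithmic above 1 and linear below). mt-Ts1 stands at 1231 to 2249 counts, and no heavy-strand gene exceeds 22.

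Read by complex, the mitochondrial subunits of complex I were the lowest group. The median of the 7 complex I members was 495, 418.0 and 440.4 TPM, against 5601, 5104 and 5171 TPM for the 3 complex IV members. The 2 complex V members averaged 4560.2, 3682 and 5159 TPM, and mt-Cytb stands alone for complex III. Complex I was below the other 3 complexes in every library and in both quantifications. The order of complexes IV and V turned, with 3153 ± 363 TPM for complex IV and 5467 ± 1071 TPM for complex V in the second table.

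The listed nuclear subunits of complex I also had the lowest median, but the lists differ in kind, with core subunits alone for complex I and small subunits as well for complexes III, IV and V. The listed nuclear genes had a median of 129 ± 16.5 TPM for complex I (7 genes), 187 ± 19.5 TPM for complex III (6 genes), 303 ± 25.0 TPM for complex IV (10 genes) and 405 ± 36.2 TPM for complex V (10 genes; SD, n = 3). The mitochondrial median was above the nuclear one by 3.56 ± 0.811 times in complex I, 15.9 ± 4.68 times in complex III, 17.5 ± 1.5 times in complex IV and 11.1 ± 2.38 times in complex V. In the second quantification these ratios were 5.67, 16.2, 10.7 and 22.7, so complex I had the smallest ratio in both tables and the order of the others turned. The highest nuclear subunits were Cox4i1 of complex IV at 1024 TPM, and Atp5h and Atp5c1 of complex V at 619 and 539 TPM. The lowest were Ndufs1 and Ndufs3 of complex I at 92.8 and 104 TPM and Atp5g2 of complex V at 111 TPM. By mean TPM, 7 of the 13 mitochondrial genes exceeded each of the 33 nuclear subunits, and 10 of the 33 exceeded the lowest mitochondrial gene, mt-Nd4l.

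**Figure D3:**
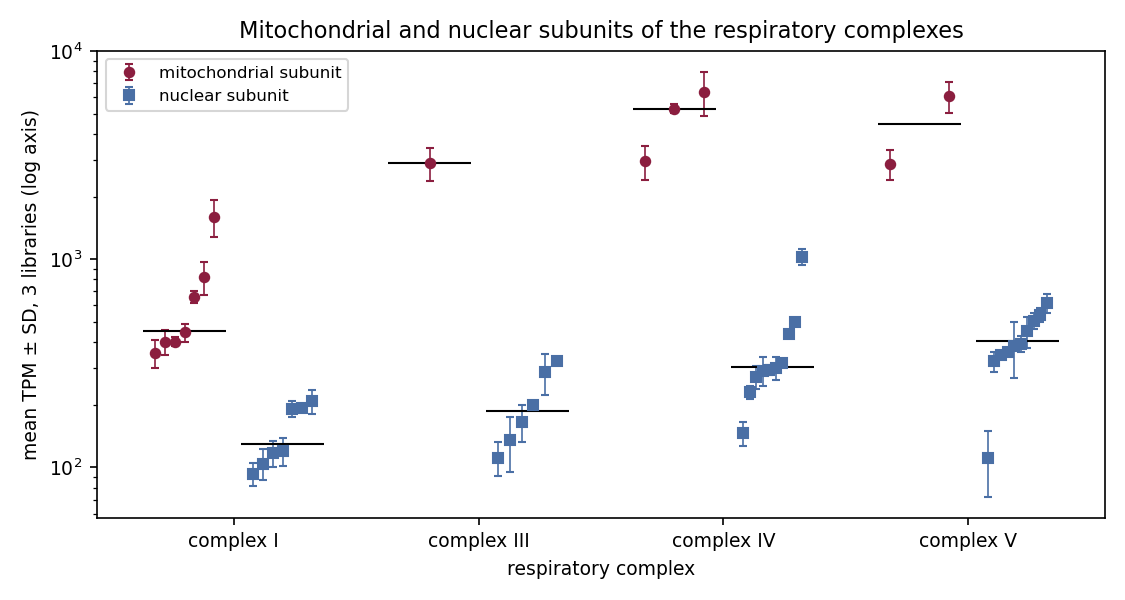
Mean TPM ± SD over 3 libraries (log axis) of each mitochondrial subunit (circles) and each listed nuclear subunit (squares) of 4 respiratory complexes, with black bars at the group median. The mitochondrial median is 3.56 times the nuclear one in complex I and 17.5 times in complex IV.

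A stretch of nuclear DNA shares its sequence with part of the mitochondrial genome, and fragments from there cannot be assigned to 1 of both by sequence. A search of the M21 transcripts found 21 nuclear genes that match 12 members at 80% identity or more over at least 60 bases. Of these, 7 matched at 99% or more, and all 7 are unprocessed pseudogenes on the minus strand of chr1:24611535-24616197, a segment of 4663 bases. It corresponds to mitochondrial positions 6390 to 11042, from within mt-Co1 to within mt-Nd4. mt-Co2 (copy Gm28661), mt-Atp6 (Gm10925), mt-Co3 (Gm28437), mt-Nd3 (Gm28438) and mt-Nd4l (Gm10222) are copied save the last 1 or 3 bases, mt-Co1 (Gm29216) and mt-Nd4 (Gm28439) in part. mt-Atp8 lies inside the span but has no copy annotated there.

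Of the 7 copies, 5 were identical over the aligned bases. The Nd3 copy differs by T3C and the Co1 copy by A1066T, each as the member's base, the position counted from 1 at the member's first base, and the copy's base. The first substitution is shown in capitals because it is the 1 base by which mt-Nd3 and its copy differ over the aligned bases.
mt-Nd3 (chrM:9459-9476): atTaacctgtacactgtt
Gm28438 (chr1:24613102-24613119, minus strand): atCaacctgtacactgtt

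In the main quantification, 4 of the 7 copies received fragments. Gm10925, the copy of mt-Atp6, held 13584, 9155 and 7537 fragments. Gm29216, of mt-Co1, held 10705, 7981 and 6721, and Gm28661, of mt-Co2, held 7886, 6499 and 5532. Gm28437, of mt-Co3, held 4495, 6731 and 7266, so its fragments were fewest in replicate 1, the deepest library. Its level was 831, 1498 and 2167 TPM. The copies of mt-Nd3, mt-Nd4l and mt-Nd4 held 0. The 14 less similar matching genes held at most 8.55 fragments in any library. Of these only Gm13341 on chromosome 2, which matches mt-Co2 at 95.9% identity, passed a mean of 1 TPM, with 2.23, 3.33 and 4.44 fragments.

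The split between member and copy differed between libraries and between tables. Of the fragments on mt-Co3 and Gm28437 together, 90.8%, 79.3% and 71.0% were on mt-Co3 in the main table. In the second table mt-Co3 held 99.9%, 100.0% and 99.8%. mt-Co2 held 66.9%, 58.6% and 59.5% in the main and 99.9%, 99.8% and 99.9% in the second table. mt-Atp6 held 67.2%, 67.1% and 72.2% in the main and 96.8%, 99% and 99.4% in the second. mt-Co1 was alike in both, at 86.5%, 86.6% and 85.2% and at 83.9%, 84.7% and 84.6%. mt-Nd3 went the other way: its copy held 0 in the main table, while mt-Nd3 held 96.8%, 100% and 90.9% in the second. The shares of mt-Co2 and mt-Co1 also count a less similar gene on chromosome 2 as copy, Gm13341 and Gm13340. In the second table Gm13341 held 42.8, 37.3 and 16.7 estimated counts, and Gm28661 held 0.00978 or fewer.

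Adding the copies' fragments to the members, again with Gm13341 and Gm13340, moved the levels of 4 genes. mt-Atp6 went to 8776 ± 1192 TPM, mt-Co3 to 7889 ± 956 TPM, mt-Co1 to 6148 ± 298 TPM and mt-Co2 to 4766 ± 555 TPM (SD, n = 3). With that, mt-Co3 spread only 1.24 times between libraries instead of 1.54. mt-Co2, at 5271, 4172 and 4854 TPM, then lay above every library of mt-Cytb and mt-Atp8, to which no copies were added. The ratio of mt-Co3 to mt-Atp6 was 1.32, 1.15 and 0.756 in the main table, 0.976, 0.973 and 0.769 with the copies added, and 1.06, 1.05 and 0.832 in the second table. Replicate 3 was the lowest in all of these. The mitochondrial share of all fragments with the copies was 3.21%, 2.53% and 3.08%.

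The copied stretch also stood out in a deposited table of whole-number counts on the M4 annotation, which holds the 13 protein-coding members. There mt-Co2 had 0, 1 and 0 counts, mt-Atp8 0, 0 and 0, mt-Atp6 1, 0 and 0, mt-Co3 8, 5 and 9 and mt-Nd4l 9, 3 and 4. These 5 genes lie inside the copied span. mt-Nd3, which also lies inside, had 480, 368 and 365. Outside it, mt-Nd1 had 21000, 14923 and 17125 counts, mt-Nd2 8876, 6458 and 5029, mt-Nd5 20458, 14969 and 12964, mt-Nd6 3629, 2803 and 2575, and mt-Cytb 53931, 35719 and 26429. mt-Co1 and mt-Nd4, copied in part, had 84362, 65285 and 51403, and 10848, 6856 and 5458. How that counter treated fragments with more than 1 place was not given in the sources used here.

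**Figure D4:**
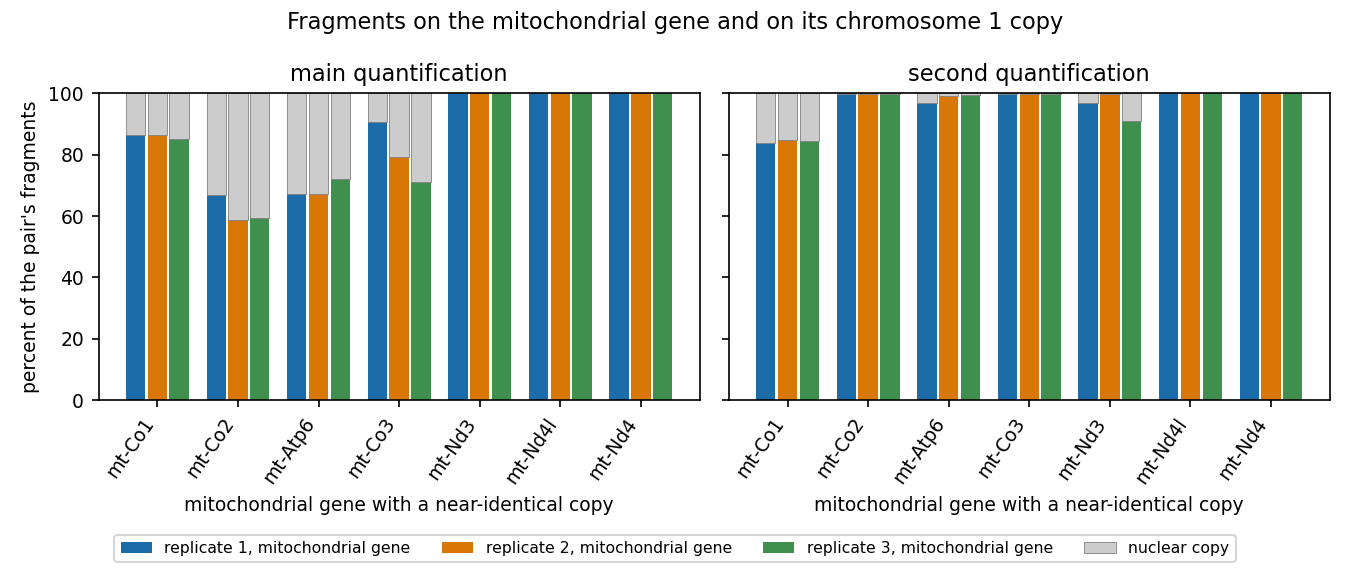
Percent of the fragments of each pair that were assigned to the mitochondrial gene (coloured, 1 bar per library) and to its near-identical copy on chromosome 1 (grey), in the main and the second quantification. For mt-Co1 and mt-Co2 the grey part also holds the less similar Gm13340 and Gm13341 of chromosome 2. mt-Co3 falls from 90.8% to 71.0% between libraries in the main values and stays at 99.8% or above in the second.

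The libraries were then compared with each other, gene by gene, against sampling noise. All 15 members tested varied beyond it by a chi-square test over the 3 libraries with Benjamini-Hochberg adjustment over all genes (largest adjusted p = 0.000318, for mt-Nd4l). This share has to be read against the background of 65.3% of 12997 genes tested, and of 77.4% among the 8485 genes whose mean count was 100 or more, to which all 15 belong. With the trended dispersion of edgeR, which adds the typical spread between these libraries, 0 of 15 members were called and 0 had an unadjusted p below 0.05 (smallest 0.175), against 1.31% of genes called. In the second quantification, 20 of 25 members tested varied beyond sampling noise, against 60.4% of genes, and the 5 that did not were the tRNA genes mt-Tq, mt-Tm, mt-Ta, mt-Te and mt-Tp.

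The libraries did not differ by 1 common factor over the members. In the main table replicate 1 was the highest library for 9 of the 15 genes and replicate 3 for 6 (mt-Rnr2, mt-Nd1, mt-Atp8, mt-Atp6, mt-Nd3 and mt-Nd6). Replicate 2 was the lowest for 12, the others being mt-Co3, mt-Nd4 and mt-Cytb, which were lowest in replicate 3. In the second quantification replicate 3 was the highest for 9 and replicate 1 for 6, and replicate 2 was the lowest for 14, all but mt-Cytb. The ratio of mt-Nd1 to mt-Nd2 was 3.14 and 3.11 in replicates 1 and 2 and 4.61 in replicate 3, and in the second table it was 2.63, 2.55 and 3.88. The ratio of mt-Cytb to mt-Nd5 was 5.05, 4.40 and 3.74, and in the second quantification 5.39, 4.71 and 3.94. Both ratios are of genes with no near-identical copy, and in both tables replicate 3 stood farthest from replicate 1. The erythroid markers were high in replicate 1 (795 TPM) and the plasma cell markers in replicate 3 (101 TPM), and their part in these differences was not tested. Among the regulatory T cell markers, Ctla4 stood at 190.2, 249.6 and 612 TPM (adjusted p = 4.1e-05 under the trended dispersion of edgeR) and Tnfrsf18 at 663, 587 and 368 TPM, and their part was likewise not tested.

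**Figure D5:**
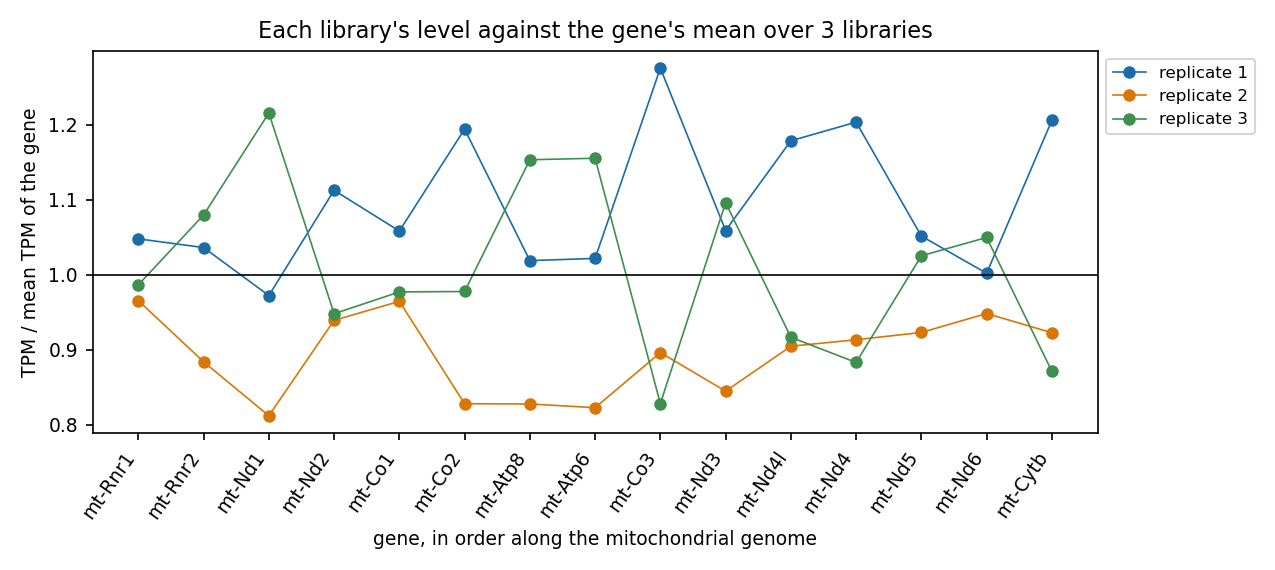
TPM of each detected mitochondrial gene in each library, divided by the gene's mean over 3 libraries (main quantification, genome order, lines join genes of a library). Replicate 2 is lowest for 12 of 15 genes, and replicate 3 is highest for mt-Nd1, mt-Atp8 and mt-Atp6 but lowest for mt-Co3, mt-Nd4 and mt-Cytb.

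Nuclear genes listed for mitochondrial gene expression cover transcription, RNA processing and stability, and also replication and upkeep of mitochondrial DNA (Polg, Polg2, Twnk, Ssbp1 and Top1mt). The 38 listed genes were all detected, with a median of 19.4 ± 1.32 TPM (SD, n = 3), close to the 20.5 TPM of detected protein-coding genes. Tfam, which packages mitochondrial DNA and starts its transcription, stood at 69.6, 59.5 and 84.5 TPM. Polrmt, the mitochondrial RNA polymerase, stood at 16.8, 25.2 and 19.2 TPM. Mtpap, the mitochondrial polyA polymerase, stood at 37.6, 36.2 and 43.4 TPM. Tfam and Mtpap varied beyond sampling noise, and both were lowest in replicate 2. Polrmt was highest in replicate 2 and did not pass that test (adjusted p = 0.697). A relation of these genes to the members was not tested.

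The stabilising partners Lrpprc and Slirp, whose proteins bind mitochondrial mRNAs as a complex, were at unequal levels. Lrpprc stood at 5.94, 9.38 and 13.1 TPM and Slirp at 65.4, 61.1 and 45.1 TPM. Lrpprc varied beyond sampling noise and was lowest in replicate 1, and Slirp did not pass that test (adjusted p = 0.417). The highest of the list were Rexo2, an oligoribonuclease, at 174 TPM, Hsd17b10, a part of mitochondrial RNase P, at 98.9 TPM and Ssbp1, the single-stranded DNA binding protein, at 84.9 TPM. The lowest were Pde12, a deadenylase, at 4.94 TPM, Tfb1m, an rRNA methyltransferase, at 5.24 TPM and Grsf1, an RNA granule protein, at 6.03 TPM. Most of the 38 have a mean count of 100 or more, a group of which 77.4% varied between libraries beyond sampling noise. Of the 38, 22 did so, against the 65.3% of all genes. Of the 33 nuclear subunits, 27 did. All 33 have a mean count of 100 or more, and the share of all such genes was 77.4%. None of either list was called under the trended dispersion.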

How the data were processed

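PolyA-selected RNA of 3 libraries was analysed as 1 group. The main gene table deposited by the authors gives expected counts and TPM per gene, and an effective length (another estimate), on GENCODE M21 and mm10 per the file headers. The second deposited transcript table gives estimated counts and TPM, summed here per gene. Another deposited table gives whole-number counts on M4. Programs, aligner and strand setting were not given in the sources used here. Entries that are not M21 genes held 0.0873% to 0.166% of fragments and were left out.

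Members and lists were chosen with earlier results of these data known. All 37 members were accounted for. Of the nuclear lists, the 3 highest and 3 lowest genes and Polrmt, Tfam, Lrpprc, Slirp and Mtpap were named. Of the copies, those near-identical to a member or above a mean of 1 TPM were named. Levels are mean and SD of TPM. Genes whose mean count reached 10 (expected counts rounded) were tested by chi-square with 2 degrees of freedom against TMM library sizes (edgeR 4.0.16, R 4.3.3), threshold 0.05 after Benjamini-Hochberg adjustment over all genes. The test was tested on simulated data. DESeq2 1.42.0 gave alternative size factors, and BLAST+ 2.17.0 found copies. With copies added, fragments were summed and divided by the member's effective length. Counting limits cover counting error only, since PCR copies were not marked by molecular identifiers. Depths are given with the results.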

Additional observations from a re-analysis of the deposited data

How the results depend on the processing

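The mitochondrial share of fragments, 2.59% in the main table, was 3.01% in the second table, 1.99% for the 13 protein-coding genes among protein-coding genes, 2.94% with the nuclear copies added, and 2.44% to 2.77% leaving out 1 library. In the second table the rRNA share was 32.7% (29.1% to 30.8% leaving out 1 library of the main table), the tRNA share 0.597% (0.000158% to 0.000720%), the median of the 13 protein-coding genes 993 TPM (1429 to 1752 TPM), the mt-Rnr2 to mt-Rnr1 ratio 6.12 (6.69 to 7.32; 12.6 in fragments) and the log2 difference of mt-Nd6 -1.79 (-2.44 to -2.34; -2.67 against the heavy-strand mean).

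Median levels in the second table were 1606 TPM for complex III, 3153 TPM for complex IV and 5467 TPM for complex V. With means of subunits they were 669 TPM for complex I and 4879 TPM for complex IV, and with copies added, a choice made after seeing the data, 6148 TPM for complex IV and 5827 TPM for complex V. Leaving out 1 library gave 429 to 468, 2605 to 3091, 5138 to 5386 and 4121 to 4859 TPM for complexes I, III, IV and V. The detected members numbered 31 in the second table, and 15 under other thresholds and without any 1 library. The 15 members varying beyond sampling noise became 0 under the trended dispersion of edgeR and 11 to 15 leaving out 1 library: mt-Co3 (adjusted p 0.442) and mt-Nd4l were lost without replicate 1, and mt-Nd3, mt-Nd4l, mt-Nd5 and mt-Nd6 without replicate 2. Where values moved, the cause was not tested. No paired analysis was possible because there is 1 group.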
